A study of Mus musculus with 2 samples.

Results

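The resident macrophage genes Lyz2, Mrc1, Csf1r, Cd68, Adgre1, Cd163 and Lyve1 and the complement genes C1qa, C1qb and C1qc were followed in the gastrocnemius of the mouse, a fast calf muscle. They were taken by symbol, as 10 of the 55536 annotated genes of the tables. Total RNA was sequenced from female B6CASTF1/J mice, hybrids of C57BL/6J and CAST/EiJ, at 14 days of age, with 300 ng of RNA per library. The series held 2 libraries of 1 untreated group, called biological replicates 1 and 2, which the labels derive from the same donor record. The library text names 3 females for each, whereas the tissue text for replicate 2 names 1 female, so any pooling of animals was not clear. Nothing was treated or varied between them, and a p-value below compares these libraries only and covers counting error, not the spread between animals.

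Tissue macrophages are long-lived phagocytes that take up dead cells and debris, and in muscle they lie in the connective tissue between fibres and around vessels. Csf1r is the receptor through which the ligands Csf1 and Il34 keep them alive. C1q, which macrophages produce, is the recognition molecule of the classical complement pathway. Its A, B and C chains join in equal numbers through collagen-like stalks, and C1q carries the proteases C1r and C1s.

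The collagen-like stalk can be read in the coding sequence of each C1q gene, and it is shown because all 3 chains share it. In GENCODE M21 the longest uninterrupted series of glycine codons spaced by 2 other codons held 16 repeats in C1qa-201, 29 in C1qb-201 and 16 in C1qc-201. A series of 16 or more was found in 71 of 21614 coding genes, or 0.328%. The first 108 bases of each series are shown 5′ to 3′ with the glycine codons in capitals, from base 184 of the coding sequence in C1qa, 91 in C1qb and 202 in C1qc, where base 1 is the A of the start codon.
C1qa: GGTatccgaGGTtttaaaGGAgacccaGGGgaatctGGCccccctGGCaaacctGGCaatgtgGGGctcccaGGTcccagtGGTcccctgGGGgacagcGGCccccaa
C1qb: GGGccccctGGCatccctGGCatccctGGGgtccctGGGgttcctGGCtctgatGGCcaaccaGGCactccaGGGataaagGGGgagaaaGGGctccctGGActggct
C1qc: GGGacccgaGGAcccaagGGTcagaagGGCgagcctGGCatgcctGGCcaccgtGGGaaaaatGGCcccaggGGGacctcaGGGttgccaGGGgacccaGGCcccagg
Despite the shared pattern, the aligned coding bases were identical for only 57.9% of C1qa and C1qb, 55.9% of C1qa and C1qc and 57.9% of C1qb and C1qc, and no stretch of 100 bases of any C1q transcript recurred in another gene.

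The C1q genes lie in a row on the minus strand of mm10 chromosome 4 within 18675 bases, C1qb at 136880129 to 136886187, C1qc at 136889804 to 136893065 and C1qa at 136895917 to 136898803, with gaps of 3616 and 2851 bases. The sequence just before C1qb and C1qc is shown from the RefSeq promoter table (GRCm38.p6, minus strand) to compare the starts of these neighbours, with matches to GAGGAA in capitals on either strand (TTCCTC is its reverse). This hexamer is the core of sites bound by PU.1, a transcription factor of macrophages.
C1qb, chr4:136886201-136886450: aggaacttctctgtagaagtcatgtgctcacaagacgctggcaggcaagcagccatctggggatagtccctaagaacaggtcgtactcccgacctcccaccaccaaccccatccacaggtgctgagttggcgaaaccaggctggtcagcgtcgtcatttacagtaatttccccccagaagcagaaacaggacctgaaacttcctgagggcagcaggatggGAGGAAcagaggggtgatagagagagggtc
C1qc, chr4:136893066-136893164: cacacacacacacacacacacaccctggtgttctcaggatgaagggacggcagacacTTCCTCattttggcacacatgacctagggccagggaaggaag
Of the 10 genes, 6 matched the promoter table, and 4 of these windows (Mrc1, Cd68, C1qb and C1qc) held the hexamer, against 28.3% of all 32851 windows of 300 bases. A match is a description of the letters only, and binding was not measured in this series.

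All 10 genes reached 1 TPM (transcript abundance corrected for length and scaled to the library total) in both libraries, and all were low beside the fibre genes. Their summed TPM was 73.3 in replicate 1 and 83.3 in replicate 2, against 101890 and 106390 for 6 fast fibre genes (Acta1, Ckm, Mylpf, Myh4, Tnnt3 and Atp2a1), markers of the labelled tissue. They held 4948 and 6245 of the 35592003 and 42105856 reads counted in genes, or 0.0139% and 0.0148%. Lyz2, the highest, ranked 3305 of 22015 nuclear protein-coding genes by mean TPM, and Adgre1, the lowest, ranked 10126. In bulk tissue, fewer cells of a type and less RNA per cell cannot be told apart.

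C1q RNA was present at nearly equal levels of the A, B and C chains, and the cells that made it were not measured. C1qa was measured at 6.76 TPM in replicate 1 and 9.58 in replicate 2, C1qb at 8.41 and 9.14 TPM and C1qc at 7.74 and 8.84 TPM. C1qb was therefore the highest chain in replicate 1 and C1qa in replicate 2, and the intervals deposited with the values overlapped for every pair of chains in both libraries. The highest chain stood 1.24-fold above the lowest in replicate 1 and 1.08-fold in replicate 2, and 1.30-fold and 1.06-fold in the second deposited quantification, made directly from the reads. As shares of the summed C1q TPM, C1qa held 32.1% ± 3.71, C1qb 34.9% ± 2.51 and C1qc 32.9% ± 1.21 (SD, n = 2). The mean shares of C1qa and C1qb differed by less than the SD of C1qa. The direct quantification gave 30.7%, 34.5% and 34.8% in the same order.

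**Figure D1:**
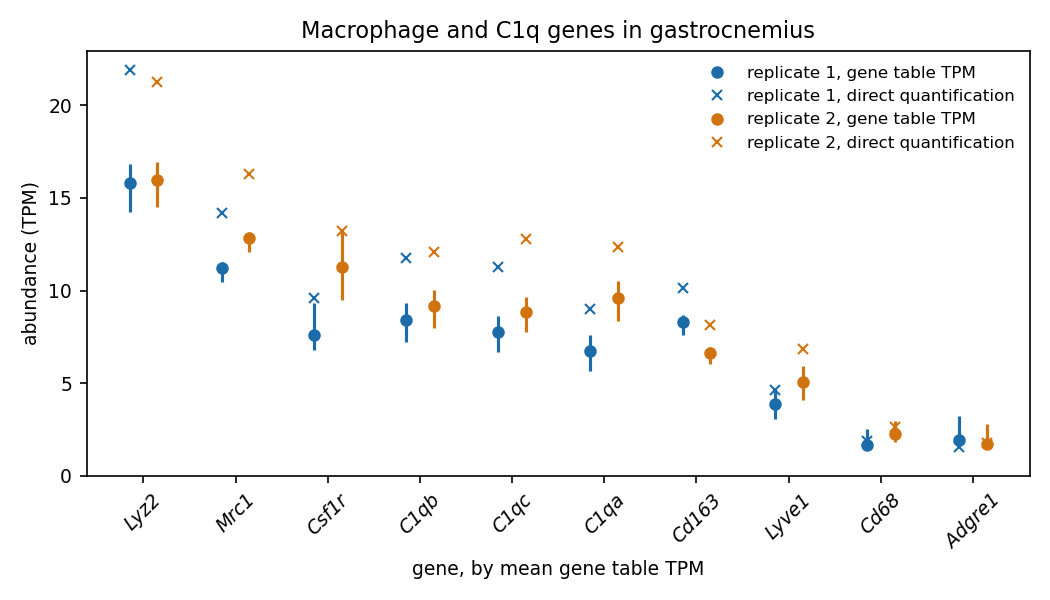
Abundance in TPM (vertical axis) of the 10 genes, ordered by mean, in replicates 1 and 2: dots and bars are the gene table TPM with the interval deposited with it, crosses the direct quantification. Lyz2 is highest at 15.8 and 16.0 TPM, the C1q chains and Cd163 lie between 6.61 and 9.58 TPM, and Cd68 and Adgre1 lie near 2 TPM.

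Counts of the C1q genes, compared between the libraries after scaling by the TMM method, put C1qa a little higher in replicate 2. C1qa had 179 and 293 reads, a log2 ratio of 0.33 (95% exact binomial interval 0.06 to 0.61, adjusted p = 0.0499 in the exact binomial test with Benjamini-Hochberg adjustment over 15734 genes). With the direct quantification, where it had 159 and 252 reads, the adjusted p of the same exact test was 0.127. C1qb had 234 and 294 reads, a log2 ratio of -0.05 (-0.30 to 0.21), and C1qc 240 and 317, a log2 ratio of 0.02 (-0.22 to 0.27). The sign of C1qb flipped under scaling by total counts (0.09) and by spike-ins (0.18). The interval of C1qa overlapped those of both other chains, and a difference among their ratios was not tested.

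Csf1r (ENSMUSG00000024621.16, chromosome 18, 61100598 to 61132149, plus strand), the macrophage growth factor receptor, had the highest ratio of gene table TPM in the group, and its reads did not pass the test. Its TPM was 7.58 in replicate 1 and 11.3 in replicate 2, with deposited intervals of 6.79 to 9.32 and 9.49 to 13.2 that did not overlap. Its reads, 766 and 1072, gave a log2 ratio of only 0.11 (-0.03 to 0.24, adjusted p = 0.254 in the exact binomial test). Csf1r-205, an annotated coding transcript of 416 bases, was given 5.61 and 30.6 reads but, being short, 0.63 and 2.96 TPM. Without it, Csf1r stood at 6.95 and 8.33 TPM, a 1.199-fold difference in place of 1.49-fold, beside a median of 1.12-fold over all tested genes (quartiles 0.977 and 1.31). The deposited intervals of Csf1r-205 overlapped, at 0 to 2.20 and 0.915 to 4.79 TPM. With the direct quantification Csf1r was 1.38-fold higher in replicate 2, at 9.59 and 13.2 TPM, below Lyve1 at 1.47-fold. There Csf1r-205 had 0 and 2.504 reads, or 0% and 5.74% of Csf1r TPM. Csf1r-203, another coding transcript, of 776 bases, had 3.75 and 17.4 reads there, or 3.56% and 10.4%. The log2 ratio of the scaled direct counts was only 0.105 (adjusted p = 0.246, exact binomial test). The gene span overlaps Hmgxb3 on the other strand, at 5.18 and 5.55 TPM, and no source used here says whether reads were counted by strand.

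The ligands of this receptor were both detected. Il34 stood at 6.52 and 7.60 TPM and Csf1 at 3.92 and 5.30 TPM, and Csf2ra, the receptor chain of a related factor, at 0.75 and 1.26 TPM. Csf1r exceeded Csf1 1.93-fold and 2.13-fold, and 2.31-fold and 1.96-fold with the direct quantification. Csf1 was higher in replicate 2, with a log2 ratio of scaled counts of 0.44 (0.26 to 0.63, adjusted p = 1.51e-05, exact binomial test), and 0.48 with the direct quantification. The other scalings tried raised the ratios of all genes alike, so they could not turn its sign. Csf2 had 0 reads in both libraries and Csf3 had 0 and 1, where a count of 0 allows up to 3 reads.

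Lyz2 (chromosome 10, 117277331 to 117282321, minus strand), the lysozyme of macrophages and other myeloid cells, was measured at 15.8 and 16.0 TPM from 542 and 633 expected reads. Its TPM was almost the same in both libraries, whereas the median over all tested genes was 1.12-fold higher in replicate 2. The log2 ratio of scaled counts, -0.15 (-0.32 to 0.01), did not pass the test (adjusted p = 0.173, exact binomial test) and turned to 0.07 with spike-in scaling. Lyz1, its neighbour 5475 bases away and its nearest copy, stood at 1.87 and 2.57 TPM, and Lyz2 was 8.46-fold and 6.22-fold higher. The coding sequences of 444 bases, without the stop codon, are 95.045% identical, differ at 22 bases and share a longest identical run of 118. The stretch with the most differences, coding bases 37 to 156, is shown because it holds 14 of the 22 coding differences, given in capitals.
Lyz2: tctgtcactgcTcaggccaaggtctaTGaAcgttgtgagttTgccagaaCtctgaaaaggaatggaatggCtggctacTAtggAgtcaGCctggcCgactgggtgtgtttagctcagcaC
Lyz1: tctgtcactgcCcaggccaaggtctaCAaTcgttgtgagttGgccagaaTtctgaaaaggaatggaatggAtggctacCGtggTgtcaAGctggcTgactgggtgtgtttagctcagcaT
Only 24 of the 1217 windows of 100 bases in Lyz2-201 recurred in Lyz1, and the deposited posterior standard deviation was 0.216% and 0.185% of the Lyz2 count. No such window in the transcripts of the other 9 genes recurred in another gene.

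Lyz2 is also a gene of neutrophils, so neutrophil genes are given beside it. Of 10 listed, none reached 1 TPM in both libraries, and their summed TPM was 2.96 in replicate 1 and 0.73 in replicate 2. The granule gene Elane and the surface gene Ly6g had 0 reads in both libraries, which allows up to 3 reads each. S100a8 had 7 and 2 reads and Ltf 16 and 3. S100a9, with 15 and 5 reads, was called lower in replicate 2, though not with the direct quantification. The part of neutrophils in the Lyz2 level was not tested.

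Cd68, a lysosomal membrane glycoprotein, and Adgre1, the adhesion receptor known as F4/80, were the lowest of the group. Cd68 (chromosome 11, 69664213 to 69666153, minus strand) stood at 1.67 and 2.26 TPM from 53 and 78 reads, and Adgre1 (chromosome 17, 57358691 to 57483527, plus strand) at 1.93 and 1.72 TPM from 108 and 147 reads. Neither count passed the test, and the width of the intervals shows what these reads can resolve: the log2 ratio was 0.18 (-0.34 to 0.71) for Cd68 and 0.07 (-0.30 to 0.44) for Adgre1. Lyz2 lay 8.20-fold and 9.30-fold above Adgre1 in gene table TPM, and 14.4-fold and 12.2-fold with the direct quantification.

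Of the scavenger receptors, Cd163 was lower in replicate 2 and Mrc1 did not pass the test. Mrc1 (chromosome 2, 14229392 to 14332057, plus strand), the mannose receptor CD206 that takes up glycoproteins, stood at 11.2 and 12.8 TPM from 1658 and 2176 reads. Its log2 ratio of 0.01 (-0.08 to 0.11) was the most narrowly bounded of the group. Cd163 (chromosome 6, 124304656 to 124330527, plus strand), the receptor for haptoglobin bound to haemoglobin, stood at 8.30 TPM in replicate 1 and 6.61 in replicate 2, from 938 and 865 reads. Replicate 2 was lower in spite of its greater depth, and the log2 ratio was -0.49 (-0.63 to -0.36, adjusted p = 5.38e-12, exact binomial test). Cd163 was negative under all 5 scalings and quantifications, from -0.49 to -0.27. Mrc1 exceeded Cd163 1.35-fold in replicate 1 and 1.94-fold in replicate 2, and 1.40-fold and 1.99-fold with the direct quantification.

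Genes of red cells and of haemoglobin handling are given beside Cd163, whose part in its difference was not tested. Summed TPM of 6 red cell genes, most of it from the globins Hbb-bs, Hbb-bt, Hba-a1 plus Hba-a2, was 2947 in replicate 1 and 1495 in replicate 2, and all 5 tested were called lower, against 1.64% of all genes. The log2 ratio was -1.16 for Hbb-bs and -1.17 for Alas2, the haem synthesis enzyme of red cell precursors, and with spike-in scaling only 1 of the 5, Hbb-bt, kept a 2-fold difference. Of 8 listed genes of haemoglobin scavenging, Hp (haptoglobin) at 3.75 and 2.27 TPM and Slc40a1 (the iron exporter ferroportin) at 5.60 and 4.94 TPM were lower in replicate 2 at any fold, with log2 ratios of -0.94 and -0.53, against 16.7% of all genes lower at any fold. Lrp1, the receptor for haem bound to haemopexin and the highest of the list at 36.6 and 49.2 TPM, was higher, with a log2 ratio of 0.22, against 14.8% of all genes. The median of the list was -0.02. Blvrb, which reduces biliverdin, stood at 6.41 and 7.75 TPM and did not pass the test. Hmox1, the haem-degrading enzyme, stood at 5.71 and 5.94 TPM, and its log2 ratio of -0.11 (-0.36 to 0.14) did not pass the test.

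Lyve1 (chromosome 7, 110850607 to 110863239, minus strand), a hyaluronan receptor of vessel-associated macrophages and of lymphatic endothelium, was measured at 3.89 and 5.06 TPM from 230 and 370 reads. The log2 ratio was 0.31 (0.07 to 0.55, adjusted p = 0.0362, exact binomial test), and 0.32 with the direct quantification. Genes listed as markers of lymphatic endothelium were detected too, and 5 of 6 reached 1 TPM in both libraries. The cells that made their RNA in whole muscle were not measured. Prox1, a transcription factor of lymphatic endothelium, stood at 2.13 and 2.77 TPM, and Pdpn at 5.71 and 7.86 TPM. Prox1, Pdpn and Reln were higher in replicate 2 at any fold, with log2 ratios of 0.26, 0.29 and 0.46, against 14.8% of all genes. Ccl21a, at 3.79 and 3.56 TPM, had a log2 ratio of -0.26 and Flt4 of -0.03, and neither passed the test. The list's summed TPM was 15.8 and 19.3. The part of lymphatic endothelium in the Lyve1 level was not tested.

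None of the 10 genes was called at an adjusted p under 0.05 and at least 2-fold, against 3.39% of the 15734 genes tested, 1.75% higher and 1.64% lower in replicate 2 (exact binomial test). At any fold, 3 of the 10 passed, C1qa and Lyve1 higher in replicate 2 and Cd163 lower, against 31.5% of all genes, and 3 passed at an unadjusted p under 0.05, against 39.0%. These shares are near or under the background. The median log2 ratio was 0.04 over the 10 genes and 0.00 over all tested genes, whose central 95% ran from -0.93 to 1.00, and the members ran from -0.49 to 0.33. Scaling by total counts or by spike-ins moved the median of all tested genes to 0.14 and 0.23 and that of the members to 0.18 and 0.27, and made the share of calls that were higher in replicate 2 67.8% and 78.7% in place of 51.7%.

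**Figure D2:**
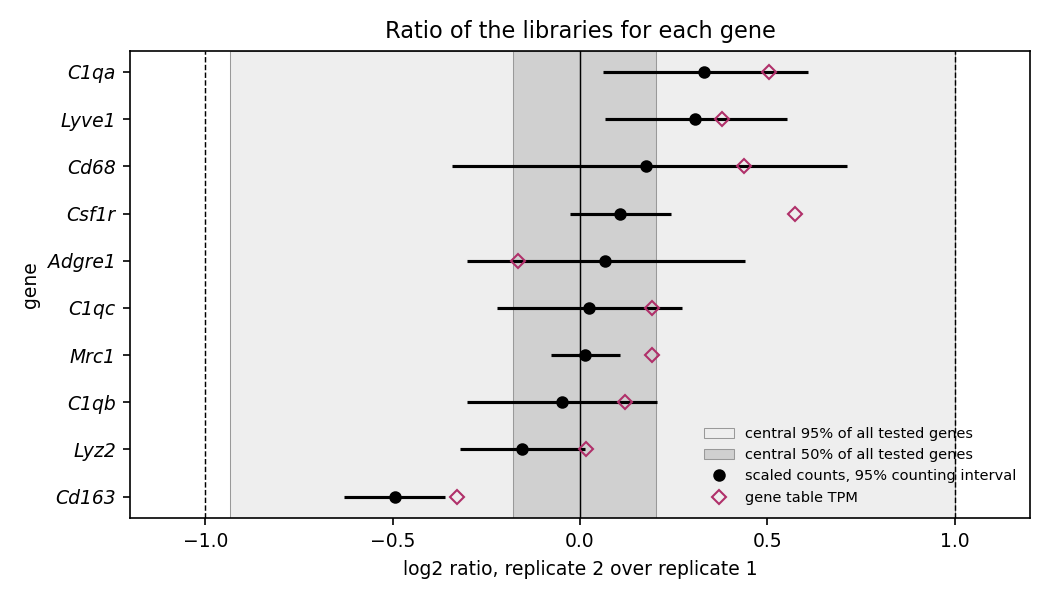
Log2 ratio of replicate 2 over replicate 1 (horizontal axis) for each of the 10 genes: dots with bars are TMM-scaled counts with 95% exact binomial intervals, open diamonds the gene table TPM, shading the central 50% and 95% of all tested genes, dashed lines a 2-fold difference. All dots lie inside the central 95%, from -0.49 for Cd163 to 0.33 for C1qa, and the diamond of Csf1r lies far to the right of its dot at 0.11. The shading is drawn from scaled counts and is not a background for the diamonds.

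By mean TPM the order was Lyz2 at 15.9 ± 0.12, Mrc1 at 12.045 ± 1.14, Csf1r at 9.44 ± 2.62, C1qb at 8.78 ± 0.516, C1qc at 8.29 ± 0.778, C1qa at 8.17 ± 1.99, Cd163 at 7.46 ± 1.195, Lyve1 at 4.48 ± 0.827, Cd68 at 1.97 ± 0.417 and Adgre1 at 1.83 ± 0.148 (TPM, SD, n = 2). Of the 9 pairs of neighbours in this order, 3 had deposited intervals apart in both libraries: Lyz2 over Mrc1, Cd163 over Lyve1 and Lyve1 over Cd68. Csf1r, the C1q chains and Cd163 formed a middle group whose neighbours overlapped in at least 1 library, and Cd68 and Adgre1 were not separated. Mrc1 and Csf1r were apart in replicate 1 only. Over all 45 pairs, 32 were apart in both libraries. The direct quantification gave TPM from 0.896 times (Adgre1) to 1.45 times (C1qc) those of the gene tables, against a median of 1.34 times over all tested genes, and kept Lyz2 and Mrc1 at the head in both libraries.

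For 5 of these genes nearly all TPM lay in 1 transcript. C1qa-201, C1qb-201 and Lyz2-201 are their genes' lone annotated transcripts, and C1qc-201 and Mrc1-201 held nearly all of theirs, 99.4% and 99.6% for C1qc-201 and 99.1% and 97.9% for Mrc1-201. The leading transcript was the same in both libraries and both quantifications for 9 of the 10 genes. Adgre1 was the exception, with Adgre1-201 leading at 44.6% in replicate 1 and listed at 0 in replicate 2, where Adgre1-202 held 82.1%. Those transcripts are 3124 and 3238 bases long, and in replicate 1 their deposited intervals overlapped, so their split is not resolved by the 108 reads there.

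Transcripts annotated as keeping an intron held a part of the scavenger receptor RNA. Cd163-203, annotated as a retained intron, held 18.1% and 17.6% of Cd163 TPM, and 18.7% and 16.3% in the direct quantification. Cd163-201, the leading coding transcript, was likewise lower in replicate 2, at 5.73 and 4.52 TPM, and the gene without Cd163-203 stood at 6.80 and 5.44 TPM. Lyve1-202, also a retained intron, held 33.2% and 26.0% of Lyve1 TPM in the tables from alignments but 12.3% and 18.2% in the direct quantification, so its share depends on the method. Without it, Lyve1 stood at 2.60 and 3.74 TPM, 1.44-fold higher in replicate 2. Mrc1-202 held 0.89% and 2.07%.

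**Figure D3:**
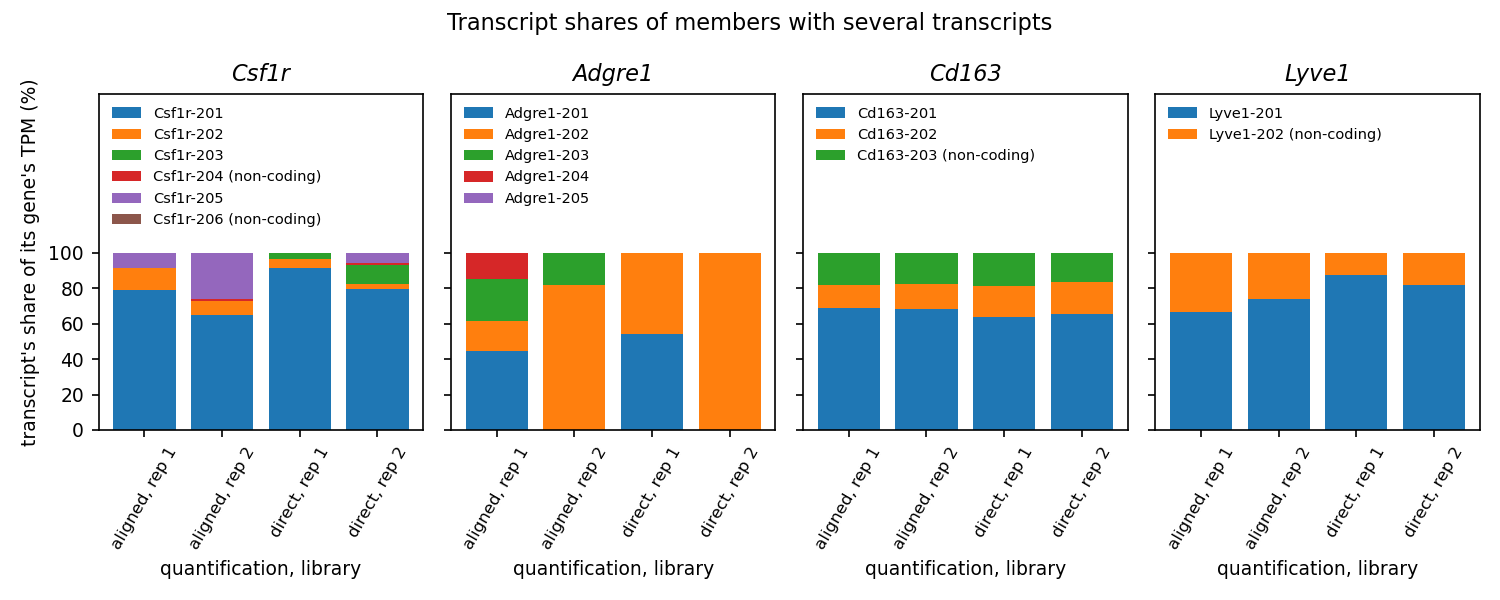
Share of each annotated transcript in its gene's TPM (vertical axis, percent) for Csf1r, Adgre1, Cd163 and Lyve1, with a bar for each library and each quantification. The bars of Cd163 look alike throughout, those of Adgre1 change from Adgre1-201 at 44.6% to Adgre1-202 at 82.1%, and Csf1r-205 grows from 8.30% to 26.3% of Csf1r in the tables from alignments.

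Of the proteases that C1q carries, C1s1 was above all C1q chains, C1ra had intervals that overlapped those of C1qa and C1qc in both libraries, and the terminal components C6 to C9 were each under 0.5 TPM. C1s1 stood at 17.7 and 19.7 TPM and C1ra at 6.45 and 7.94 TPM, and C1s1 exceeded C1qa 2.62-fold and 2.05-fold. Masp1, a protease of the lectin pathway, stood at 7.47 and 8.41 TPM and Cfd, complement factor D, at 6.96 and 8.09 TPM. C3, the central component, was at 0.57 TPM in both libraries, C4b at 0.36 and 0.88 TPM, and Hc (C5) and C8b had 0 reads in both, which allows up to 3. Of 17 genes of the cascade, 10 were tested and 1, Cfb, was called, higher in replicate 2 with 19.8 and 68.0 expected reads, against 1.75% of all genes. Its TPM was 0.64 and 0.94, and 1.17 and 1.09 with the direct quantification, where the order of TPM turned. The log2 ratio of its scaled counts was 1.36, and 1.32 with the direct quantification. By counts it was called in all 5 scalings and quantifications. Of these only the direct quantification could lower its ratio, since the other scalings raised the ratios of all genes alike. Cfb shares reads with another feature, since its posterior standard deviation exceeded 1% of the count. At any fold C2 and C4b were higher as well, with log2 ratios of 0.73 and 0.72, and both share reads by the same measure. The TPM of C2 was 1.43 and 1.53, with deposited intervals of 1.31 to 2.73 and 1.52 to 2.58 that overlapped, from 54.0 and 117 expected reads.

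The inhibitor of the C1 proteases, Serping1, was the highest of 8 complement inhibitors at 27.1 and 35.1 TPM, 1.53-fold and 1.79-fold above C1s1 in the gene tables and 2.32-fold and 3.22-fold with the direct quantification. Cr1l, which blocks complement on cell surfaces, stood at 18.7 and 17.1 TPM and Cd55 at 15.6 and 17.5 TPM. None of the 6 tested inhibitors was called, and 3 were higher and 1, Cr1l, lower at any fold, against 14.8% and 16.7% of all genes. The sign of Cr1l flipped with spike-in scaling (0.02). Of the genes for proteins that bind C1q or complement fragments, Calr (calreticulin) stood at 91.4 and 111.7 TPM and C1qbp at 68.5 and 73.1 TPM. The uptake receptor Lrp1 stood at 36.6 and 49.2 TPM. The fragment receptors C3ar1 and C5ar1, which are found on macrophages, stood at 0.54 and 0.77 and at 0.98 and 1.26 TPM. These are RNA levels in whole muscle, and binding of C1q was not measured. None of the 9 tested in this list was called, against 3.39% of all genes. At any fold Calr and Lrp1 were higher in replicate 2, with log2 ratios of 0.15 and 0.22, against 14.8% of all genes.

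Of 16 further macrophage and myeloid genes reported here, 7 reached 1 TPM in both libraries. Tyrobp, an adaptor of myeloid receptors, stood at 3.97 and 5.06 TPM, Laptm5, a lysosomal membrane protein of blood cells, at 2.64 and 3.92 TPM and Fcgr3, a receptor for antibodies, at 2.5 and 3.61 TPM. Of these genes 15 were tested and none was called, against 3.39% of all genes. At any fold Cx3cr1 was higher in replicate 2, with a log2 ratio of 0.84, against 14.8% of all genes. Ctss was lower at any fold, with a log2 ratio of -0.62, against 16.7%. With spike-in scaling Cx3cr1 passed 2-fold (1.06). The median log2 ratio of the tested genes in this list was 0.16. Spi1, which encodes PU.1, stood at 1.06 and 0.72 TPM from 33 and 40 reads.

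Genes listed as markers of macrophages around vessels and in connective tissue summed to 66.9 and 88.8 TPM over 11 genes. Without Gas6 they summed to 40.1 and 53.6 TPM. How much of either sum came from macrophages was not measured. Stab1, a scavenger receptor, stood at 14.0 and 19.7 TPM, Pf4 at 6.64 and 11.6 TPM, F13a1 at 8.13 and 7.82 TPM, Cbr2 at 5.93 and 7.01 TPM and Folr2 at 1.36 and 2.97 TPM. Gas6, a bridging ligand for uptake of dead cells that many cell types make, was highest at 26.8 and 35.2 TPM, and Timd4 had 10 and 13 reads. Vsig4 had 0 reads in both libraries, which allows up to 3. None of the 10 tested was called, against 3.39% of all genes, and the median log2 ratio was 0.12. At any fold only Gas6 passed, higher in replicate 2 with a log2 ratio of 0.22, against 14.8% of all genes. Markers of monocytes and antigen presenting cells were lower, and 5 of 11 reached 1 TPM in both libraries. Cd74 stood at 4.86 and 4.76 TPM, Zbtb46 at 2.52 and 2.77 TPM, H2-Aa at 2.04 and 1.89 TPM and Ccr2 at 0.27 and 0.60 TPM. Others of this list had few reads: Plac8 6 and 8, Itgax 3 and 4, Flt3 2 and 1, and Xcr1 0 in both libraries. Which cells made the Zbtb46 RNA was not tested. The lymphocyte list had no gene at 1 TPM in both libraries. It was headed by the leukocyte gene Ptprc at 0.68 and 0.79 TPM, with Cd79b at 0.42 and 0.53 and Cd4 at 0.21 and 0.13 TPM.

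**Figure D4:**
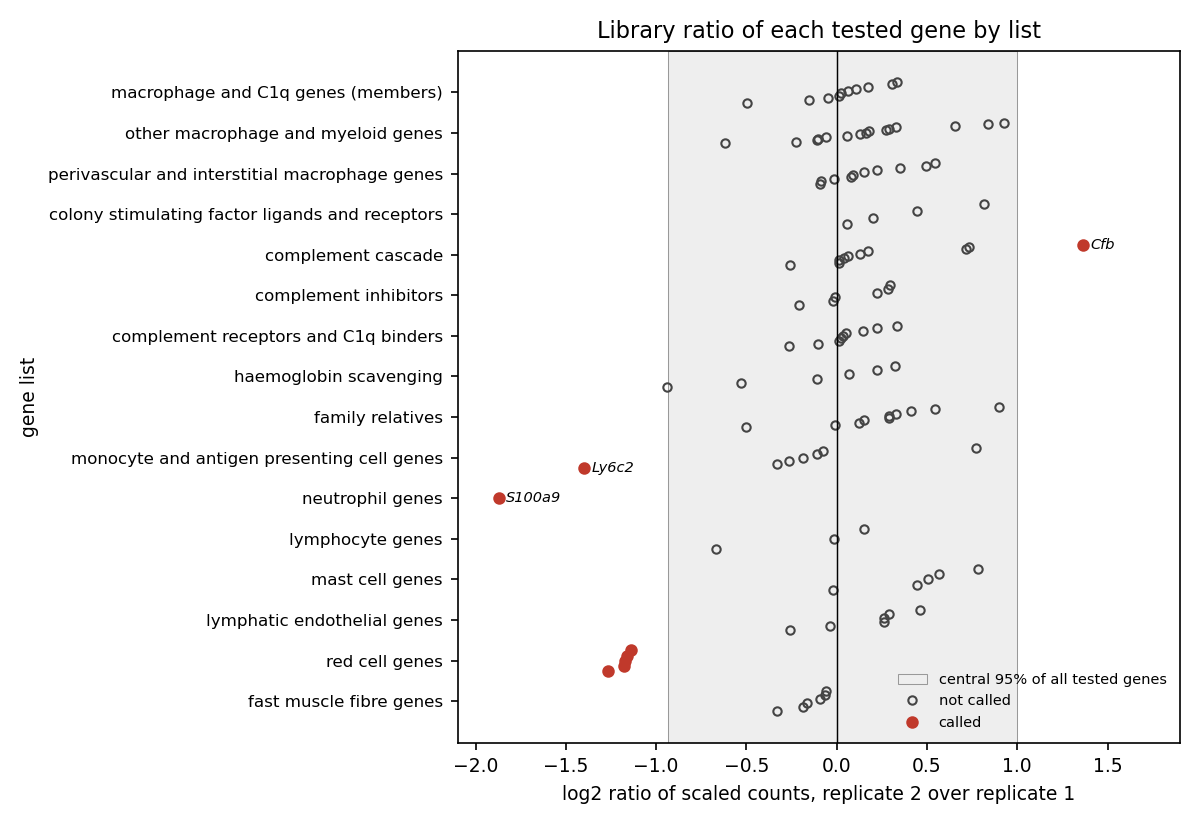
Log2 ratio of scaled counts, replicate 2 over replicate 1 (horizontal axis), of the tested genes reported here by list (vertical axis), with called genes filled and the central 95% of all tested genes shaded. The 10 members lie from -0.49 to 0.33 with none called. The called genes are Ly6c2, S100a9 and 5 red cell genes to the left and Cfb to the right.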

How the data were processed

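Each library came with gene and transcript tables from transcriptome alignments and a further transcript table made directly from reads, all deposited on mm10 with GENCODE M21 per the notes deposited beside them. No source used here names the software. The tables hold expected counts, estimates by the authors that can be fractional, as their column headers say. The deposited TPM values are per length and scaled over all listed features, spike-ins included. The authors' posterior mean TPM and its interval bounds were treated as scores, and the level of the interval is not given. The deposited isoform percent is each transcript's share of its gene. Direct TPM and counts were summed per gene. Symbols and coordinates came from GENCODE M21, which matched all 55536 gene IDs, and sequences from its transcripts and from RefSeq.

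Expected counts were rounded and library sizes scaled with TMM in edgeR 4.0.16 (R 4.3.3). With 1 library on each side, genes reaching 20 counts over both libraries entered an exact binomial test, two-sided (scipy 1.17.1), with Benjamini-Hochberg adjustment over all of them. A call needed an adjusted p below 0.05 plus a 2-fold difference; ratios use a prior count of 0.5. The test was run on simulated counts first. All 10 members passed the filter. DESeq2 1.42.0 gave other size factors. Depth was 35592003 and 42105856 gene counts. The members and lists were chosen with earlier results of these data known. Named genes are all members and, of the other lists, each called gene and the 3 of highest mean TPM; others were chosen after their values were seen. The result of 1 further listed gene is not reported here, and counts over the lists leave it out.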

Additional observations from a re-analysis of the deposited data

How the results depend on the processing

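No member was called under DESeq2 size factors, total counts, spike-in scaling, no filter on low counts, the direct quantification or a 1.5-fold minimum. With no fold minimum, an alternative chosen after seeing the data, 3 were, with 4952 of all genes in place of 534 and 39 of the other listed genes in place of 8. A 1.5-fold minimum gave 1270 and 15. C1qa lost its small p at any fold with the direct quantification, where its log2 ratio was 0.29 in place of 0.33, and the cause was not tested. Mrc1 and Csf1r passed at any fold under total counts and spike-in scaling, with log2 ratios of 0.15 to 0.24 and 0.24 to 0.33. Summed TPM of the members was 78.3 in the gene tables, 101.6 with the direct quantification and 160.2 over nuclear protein-coding genes, which by construction leaves out the abundant structured and mitochondrial RNAs. The share of C1qc was 34.8% with the direct quantification in place of 32.9%. Leaving out each library in turn gave 73.3 to 83.3 for the summed TPM and 29.5% to 34.8% for C1qa, 33.2% to 36.7% for C1qb and 32.1% to 33.8% for C1qc, and no ratio of libraries can then be formed. No paired analysis was possible because both libraries belong to 1 group. Depth limits Cd68 and Adgre1 most, and Spi1, Trem2 and the neutrophil genes rest on few reads.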

Other observations

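Among 11 relatives of the members, levels ran from under to over those of the members. Mrc2, a collagen uptake receptor of the mannose receptor family, stood at 11.99 and 16.7 TPM, so Mrc1 was 0.937 and 0.769 times its level, and Adgre5, a relative of Adgre1, at 17.2 and 19.5 TPM. Lyz1, Adgre4, at 0.05 and 0.06 TPM, and Stab2, at 0.43 and 0.32 TPM, were low. C1qtnf6 stood at 14.5 and 19.7 TPM and C1qtnf3 at 5.32 and 11.1 TPM, both secreted proteins with a C1q-like domain. None of the 10 tested relatives was called at 2-fold with TMM scaling, and 5 were higher in replicate 2 at any fold, Mrc2, Cd44, C1qtnf2, C1qtnf3 and C1qtnf6, with log2 ratios from 0.29 for C1qtnf6 to 0.90 for C1qtnf3, against 14.8% of all tested genes. C1qtnf3 passed 2-fold in 2 of the 5 scalings and quantifications.

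Mast cell genes were detected beside the macrophage genes, and 5 of 6 reached 1 TPM in both libraries. The proteases Tpsb2, Cma1 and Cpa3 stood at 3.67 and 6.15, 2.48 and 4.81, and 2.40 and 3.83 TPM, and were higher in replicate 2 at any fold with log2 ratios of 0.57, 0.78 and 0.50, against 14.8% of all tested genes. Kit, with a log2 ratio of -0.02, and Mcpt4, with 0.45, did not pass the test. Ly6c2, a monocyte gene, was called lower with 34.9 and 17.1 expected reads, and it shares reads with other features. With the direct quantification its log2 ratio was -0.91, under 2-fold.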
